A study of Mus musculus with 6 samples.

Results

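The T cell receptor loci were followed through 13 probe sets, those of 12422 non-control probe sets whose platform annotation names nothing but T cell receptor segments. They stand for 9 segments, and RefSeq lists all 9 as V segments, the pieces that encode most of the antigen-contacting part of a receptor chain. The alpha locus has 6 of the probe sets (Trav19, Trav6-2, Trav12n-1 and 3 for Trav9d-3), the beta locus 4 (2 each for Trbv1 and Trbv13-2) and the gamma locus 3 (Trgv1, Trgv4 and 1 annotated to both Trgv4 and Trgv2). No member was annotated to the delta locus, to a J segment or to a constant region, and the 9 segments compare with 266 V, J and constant segments that RefSeq lists for the 4 loci.

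RNA came from double-negative thymocytes, which carry neither CD4 nor CD8, and was hybridised to 6 single-colour Affymetrix mouse arrays. There were 3 arrays of RAG1/Ezh2 double mutant mice and 3 of mice deficient in RAG1 alone, so both groups lack RAG1 and differ, per the labels, in Ezh2. The labels give neither the allele of Rag1 or Ezh2, nor any Cre or promoter, nor strain, sex or age, and they do not say whether the arrays of a group came from separate animals, so the p-values reflect only how these samples vary, and that variation may be technical. Titles come in 3 wordings, each with 1 array per group: replicate 1 has a numbered title, replicate 2 a title with Rag and replicate 3 a title with Thy, and WT closes the titles of replicates 1 and 3 of the RAG1-deficient group, whose descriptions name RAG1.

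T cell receptor chains are assembled from separate V, D, J and constant segments by the RAG1/RAG2 recombinase. Without RAG1 no such joining takes place and thymocytes stay at the double-negative stage. Unjoined segments can still be transcribed from their own promoters, which is known as germline transcription, and in normal thymocytes the beta, gamma and delta loci are joined at the double-negative stage while the alpha locus follows at the later double-positive stage, when CD4 and CD8 are both present. Ezh2 is the catalytic subunit of a Polycomb complex that methylates histone H3 at silent genes. The comparison asks whether transcripts read by these V segment probe sets differ between RAG1/Ezh2 double mutant and RAG1-deficient thymocytes.

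Arrays that stood apart bear on what follows. RAG1-deficient replicate 1 went against the double-negative label, with the co-receptor genes Cd8a at 2973 and Cd8b1 at 8426 in scaled intensity, where the other 5 arrays reached at most 81.3 and 164. The Rag arrays stood apart along the first principal component, which held 47.5% of the variance, and the 3' control probe set of beta-actin read 5826 and 4448 on them, against 23267 to 38661 on the other 4. That of Gapdh went the other way, at 22838 and 24707 against 14366 to 17709. The ratio of the 3' to the 5' control probe set of beta-actin was also highest on the Rag arrays (2.77 and 2.26, against 1.24 to 1.99). RNA quality may thus differ by title wording, which was not tested. Ezh2 was at 292, 651 and 724 on the double mutant arrays and 1435, 1641 and 1790 on the RAG1-deficient arrays, without overlap. It was thus lower but above the filter level on all double mutant arrays, and which part of its transcript is read is not given. Between 55.2% and 64.3% of the probe sets of an array exceeded 86.5, the level used as a filter on dim probe sets, and 7 of the 13 members exceeded it on at least 3 arrays and were tested among 7642 probe sets.

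The gamma-locus probe sets were far above the filter level on all 6 arrays, in both groups. Gamma chains pair with delta chains in the receptor of gamma-delta T cells, and gamma V segments are known for germline transcription that depends on interleukin-7 receptor signalling. Trgv1 (probe set 102695_at) read 18001, 27238 and 20163 in double mutant replicates 1 to 3, against 14411, 28809 and 18597 on the RAG1-deficient arrays. The group ranges overlapped almost wholly, and the highest array of each group was its replicate 2. The means were 21800 ± 4831 and 20605 ± 7406 (SD, n = 3 each).

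Trgv4 was read by 102745_at at 29845, 32087 and 22755 on the double mutant arrays and 24146, 33405 and 23866 on the RAG1-deficient arrays. The ranges overlapped, with the highest and the lowest array of the double mutant both below those of the other group. The probe set annotated to both Trgv4 and Trgv2 (102744_at) read 20526, 24129 and 18899 on the double mutant arrays and 19543, 26616 and 21452 on the RAG1-deficient arrays. Again replicate 2 was the highest array of both groups. In the RefSeq order of segments, Trgv4 sits between Trgv7 and Trgv6, while Trgv2 is the direct neighbour of Trgv1, so the probe set with both names spans different parts of the locus.

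In the beta locus 1 of the 2 probe sets of Trbv1 was above the filter level. Beta chains pair first with the pre-T cell receptor alpha chain and later with an alpha chain. Probe set 93105_s_at, of a type that can detect several related transcripts, read 31838, 28642 and 25735 on the double mutant arrays and 41669, 31709 and 25741 on the RAG1-deficient arrays. RAG1-deficient replicate 1 was the highest array, and the values of the Thy pair were nearly equal. The other probe set, 94726_at, stayed between 7.6 and 18.9 on all 6 arrays, under the filter. Which part of a transcript each probe set reads is not given in the sources used here, so a probe set named for a V segment may also read sequence that its transcript shares with others.

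Both probe sets of Trbv13-2 were above the filter on every array. Probe set 101279_f_at read 271, 418 and 509 on the double mutant arrays and 216, 436 and 349 on the RAG1-deficient arrays (both as replicates 1 to 3). Probe set 94202_at read 252, 473 and 635 on the double mutant arrays and 237, 418 and 724 on the RAG1-deficient ones. Replicate 1 was the lowest array of each group for both. The means overlapped within their spread, at 399 ± 120 in the double mutant and 334 ± 111 in the RAG1-deficient group for the first, and at 453 ± 192 and 460 ± 246 for the second (SD, n = 3 each).

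**Figure D1:**
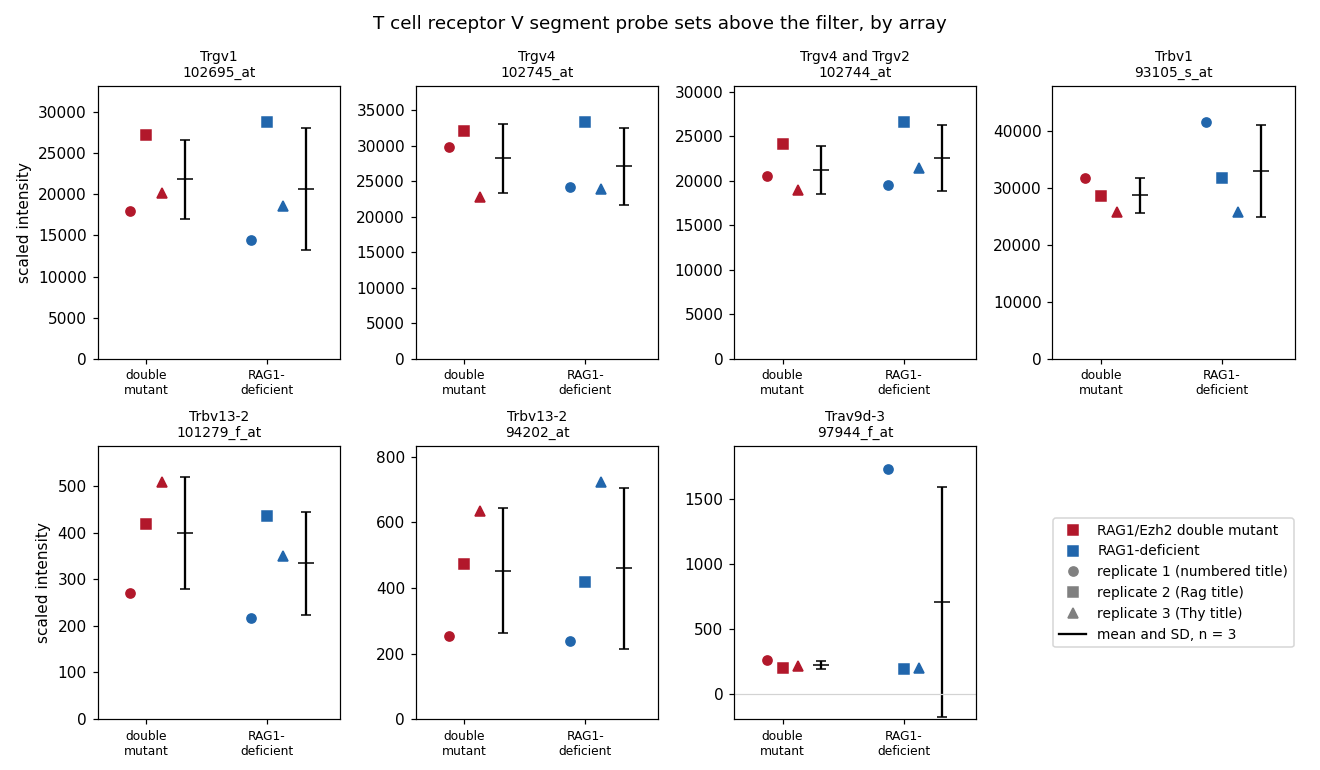
Scaled intensity (linear axis) of the 7 tested V segment probe sets on each array, double mutant in red left of RAG1-deficient in blue, with bars for mean and SD (n = 3); marker shapes give replicate and title wording. Group ranges overlap in all 7 panels, and in the Trav9d-3 panel 1 RAG1-deficient array reads 1723 while the other 5 read 194 to 260.

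Of the 6 alpha-locus probe sets, 1 was above the filter level on all arrays, and the highest values of several came from a single array. In normal thymocytes alpha V segments are joined after beta selection, so their joined transcripts belong to cells past the double-negative stage. Whether these probe sets read joined or unjoined transcripts here was not tested. For Trav9d-3, probe set 97944_f_at read 260, 198 and 216 on the double mutant arrays and 1723, 194 and 201 on the RAG1-deficient arrays. RAG1-deficient replicate 1 was 6.63 times the highest of the other 5, which lay close together.

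A second probe set of Trav9d-3, 97945_at, had the widest log2 range of all members. It read 15.0, 6.5 and 26.9 on the double mutant arrays and 335, 3.3 and 8.5 on the RAG1-deficient arrays, so RAG1-deficient replicate 1 was 12.4 times the highest other array. It exceeded the filter level on this 1 array and was not tested. The third probe set, 93224_at, went the other way there, at 12.8 on RAG1-deficient replicate 1 against 41.7 to 98.0 on the other 5, and it was not tested either. The 3 probe sets of this segment therefore did not share 1 pattern.

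The other alpha-locus members never reached the filter level. Trav6-2 read 14.5, 8.5 and 14.0 on the double mutant arrays and 58.5, 5.1 and 12.5 on the RAG1-deficient arrays, with replicate 1 again highest. Trav12n-1 read 12.7, 9.6 and 19.6 on the double mutant arrays and 44.7, 5.3 and 33.2 on the RAG1-deficient arrays. Trav19 was more even, at 67.6, 36.6 and 66.4 on the double mutant arrays and 68.1, 62.3 and 40.2 on the RAG1-deficient arrays. RAG1-deficient replicate 1 was thus the highest array for 5 of the 6 alpha-locus probe sets, narrowly so for Trav19.

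Across the whole table, RAG1-deficient replicate 1 lay at least 1 log2 unit above all other arrays for 123 of 12422 probe sets (0.990%), and 3 of the 13 members were among them. The same count was between 9 and 44 for the other arrays, with 0 members each. At 2 log2 units or more there were 6 probe sets, which in order were Cd8b1, Cd8a, the homeobox gene Dlx1, both Trav9d-3 probe sets just described and the oxidase gene Aox1. Of the 12422 probe sets the 2 for Trav9d-3 had the fourth and the fifth largest gap. These counts describe 1 array and carry no test.

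**Figure D2:**
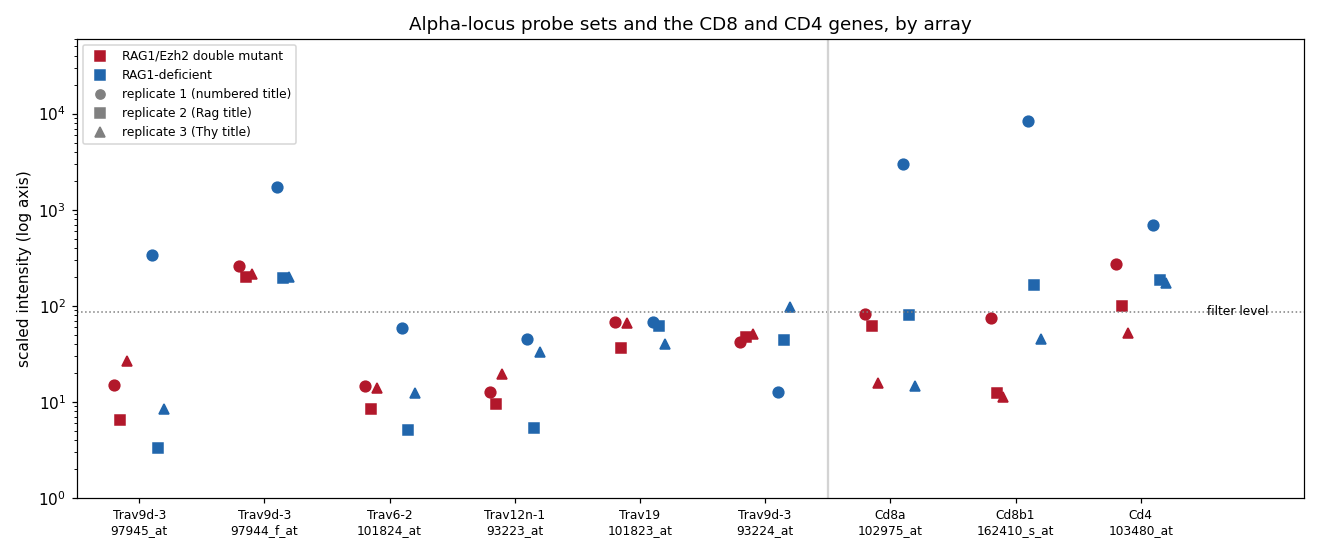
Scaled intensity (log axis) of the 6 alpha-locus probe sets and, right of the vertical line, of Cd8a, Cd8b1 and Cd4 on each array, double mutant in red left of RAG1-deficient in blue, with marker shapes for replicate and title wording. The dotted line is the filter level of 86.5, and RAG1-deficient replicate 1 (blue circle) stands above the other 5 arrays for 97944_f_at, 97945_at, Trav6-2, Cd8a, Cd8b1 and Cd4.

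Some markers of double-positive and later T cells were high on that array and others low. Cd4 read 699 there, against at most 273 elsewhere. Over the 11 probe sets of the marker list, the summed intensity was 6402, 7344 and 5121 on the double mutant arrays and 21953, 6966 and 6746 on the RAG1-deficient arrays. Cd8b1 (8426) and Cd8a (2973), already given above, supplied the larger part of the 21953. RAG1-deficient replicate 1 was the highest array for 7 of these 11, and no listed value was at 0. It was the lowest array for Cd5, an inhibitory receptor of T cells, at 62.0, and for 1 of the 2 probe sets of the related receptor Cd6, at 194. Its sums over antigen-presenting cell markers (32289, against 6435 to 24989), B lineage markers (8045, against 4937 to 7125) and stromal markers (4440, against 1961 to 4297) were also the highest of the 6. Most of the B lineage sum came from Ighm, at 3285 and 1429 in its brightest probe sets. Cd79b read 920 there, against 843 to 1592 on the other arrays. The stromal sum was close to that of double mutant replicate 1. The sum of RAG1-deficient replicate 1 over myeloid markers (3630) was the lowest. The part of other cells in the alpha-locus signal was not tested, and in bulk RNA more cells of a type and more RNA per cell cannot be told apart.

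By the naming rule, 97945_at was also set against all 881 named probe sets of other genes that met 2 conditions. These were a log2 range of at least 2 over the 6 arrays and a value above the filter level on at least 1 array. The 8 genes with the highest Pearson correlation were Cct6a, Idh3b, Kcnj6, Bhmt, Dlx1, Ptprd, Tubb4a and Aox1, at r between 0.973 and 0.994 over 6 arrays. All 8 were highest on RAG1-deficient replicate 1, at 86.8 (Kcnj6, close to the filter level) to 352 (Tubb4a), and at most 87.5 elsewhere. Most of them exceeded the filter level on that array only, so the way they were selected and 1 array set these coefficients. Cd8a and Cd8b1 correlated with the same probe set at 0.901 and 0.887 and Cd4 at 0.700, which is likewise a description of 6 arrays.

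No T cell receptor locus probe set passed the group comparison. It was made on log2(intensity + 23) with limma, two-sided, with p adjusted by Benjamini-Hochberg across the 7642 probe sets and called under 0.05, and 0 of the 7 tested members passed, where 0.0393% of all tested probe sets did. With title wording as a block 0 of 7 passed as well, against 0.667% of all, and at an unadjusted p under 0.05 the count was 0 of 7 in both fits, where 3.19% of all tested probe sets without and 13.1% with the block were under it. With 7 probe sets, a count of 0 is near what these shares give. Of the 7, 4 lay above 0 and 3 below, with a median log2 difference of 0.02, beside a median of -0.0021 over all tested probe sets. None of the 7 had groups without overlap, a pattern seen in 7.13% of all tested probe sets, and neither did the members that were not tested. Over all 13 members 5 lay above 0 and 8 below, with a median log2 difference of -0.08.

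The intervals show how large a change these arrays could have missed. For Trgv1 the log2 difference, double mutant minus RAG1-deficient, was 0.12 ± 0.31 (SE) with a 95% interval of -0.58 to 0.82. It was 0.06 for Trgv4, with an interval of -0.51 to 0.63, and -0.08 for the probe set of Trgv4 and Trgv2, with an interval of -0.61 to 0.44. For gamma V segments the intervals thus stay inside 1 log2 unit on either side. Fitted with the block, the interval of Trgv1 was -0.14 to 0.38, that of Trgv4 -0.20 to 0.32 and that of the shared probe set -0.32 to 0.15.

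Among beta V segments, Trbv1 (93105_s_at) had a log2 difference of -0.18 ± 0.25 (SE), with an interval of -0.75 to 0.40. Without RAG1-deficient replicate 1 it was 0.0030. The probe sets of Trbv13-2 gave 0.25 ± 0.33 (SE) for 101279_f_at and 0.02 ± 0.44 (SE) for 94202_at, with intervals of -0.50 to 1.004 and -0.99 to 1.03. Without RAG1-deficient replicate 1 these became -0.012 and -0.36, so all 3 beta-locus differences changed sign with that array. Trgv1 and Trgv4 did so too, at -0.11 and -0.016, while the probe set of Trgv4 and Trgv2 stayed below 0 at -0.18.

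Trav9d-3 (97944_f_at) had the largest difference of the 7, -0.83 ± 0.72 (SE), with an interval of -2.47 to 0.81 and an adjusted p of 0.9999. It rests on 1 array. The pairs gave -2.63 for the numbered, 0.03 for the Rag and 0.10 for the Thy wording, and without RAG1-deficient replicate 1 the difference was 0.16. In the block fit without the Rag pair this probe set alone among the members passed as lower (log2 difference -1.26, limma adjusted p = 0.00135, where 2.50% of all tested probe sets passed), although its remaining pairs went opposite ways. With 2 arrays per group that fit takes its spread largely from pooling over probe sets.

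**Figure D3:**
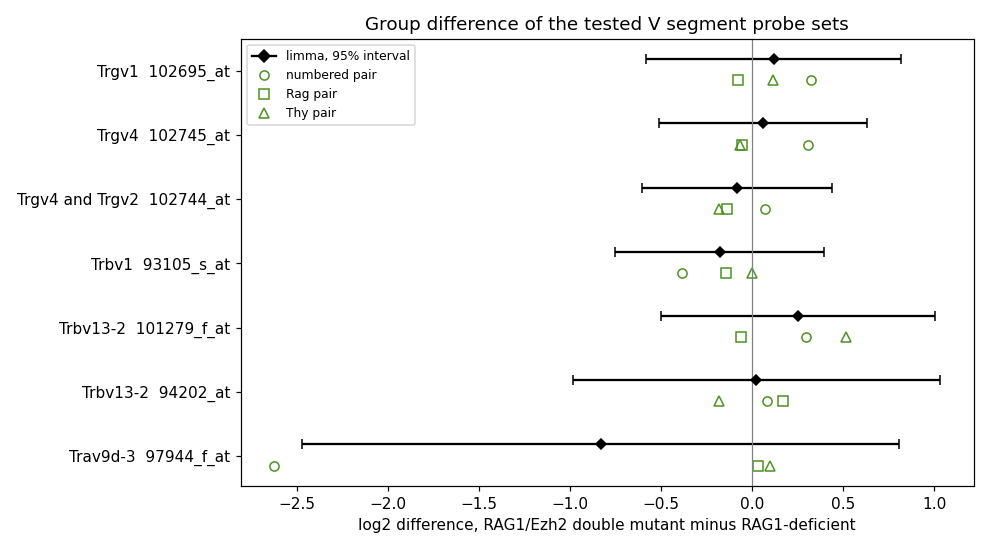
Log2 difference, double mutant minus RAG1-deficient, of the 7 tested probe sets: black diamonds with 95% intervals from limma without the block, green open markers for each title pair. All 7 intervals include 0, and the numbered pair of Trav9d-3 lies at -2.63, apart from the other pairs.

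Title wording was tested with a moderated F test in limma, with group in the fit, and 3 of 7 members passed at an adjusted p under 0.05, where 30.2% of all tested probe sets passed, so the members' count is close to the background. These were both probe sets of Trbv13-2 and that of Trgv1. At an unadjusted p under 0.05 all 7 passed, where 47.4% of all tested probe sets did. The count of 3 was 0 without RAG1-deficient replicate 1 (7.90% of all tested probe sets), 6 without double mutant replicate 2 (27.2% of all) and 1 (Trbv13-2, 94202_at) without a trend in the spread (15.8% of all). What the wordings stand for (animals, days or preparations) is not given in the labels.

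Trbv13-2 was lowest on the numbered arrays. Probe set 94202_at read 473 and 418 on the Rag arrays and 635 and 724 on the Thy arrays, against 252 and 237 on the numbered arrays, the double mutant array first in each pair. The log2 differences from the numbered wording were 0.81 for Rag and 1.39 for Thy (limma adjusted p = 0.00812, and 0.0564 without RAG1-deficient replicate 1). For 101279_f_at they were 0.76 and 0.75 (adjusted p = 0.0456), a call that ended without the filter (0.0803), without a trend (0.0691) and with any 1 array left out (0.0518 to 0.194) except double mutant replicate 2 (0.0172). Beside these, the median over all tested probe sets was -0.13 for Rag and 0.03 for Thy.

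On the deposited scale gamma V segments were highest on the Rag arrays, which with quantile normalization held for Trgv1 (0.53 for Rag and 0.46 for Thy) but not for the other 2 probe sets. Trgv1 was 0.80 higher for Rag and 0.27 higher for Thy than for the numbered wording on the log2 scale (adjusted p = 0.0147), a call that ended without a trend in the spread (0.0647) and without RAG1-deficient replicate 1 (0.0749). Both Rag arrays exceeded the other 4 in all 3 gamma-locus probe sets, a pattern held by 15.2% of all tested probe sets. Trgv4 and the probe set shared with Trgv2 did not pass (adjusted p = 0.0678 and 0.1003), with Rag differences of 0.29 and 0.34. With quantile normalization these were 0.10 and 0.09, under the Thy differences of 0.13 and 0.19, so that in these 2 probe sets the Rag wording was then no longer the highest.

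Trbv1 (93105_s_at) followed another order. It read 28642 and 31709 on the Rag arrays and 25735 and 25741 on the Thy arrays, against 31838 and 41669 on the numbered arrays, the double mutant array first in each pair. Both numbered arrays exceeded the other 4, as in 14.4% of all tested probe sets, and both Thy arrays lay below the other 4, as in 9.77%. Trbv1 did not pass (adjusted p = 0.0597), with log2 differences from the numbered wording of -0.27 for Rag and -0.50 for Thy. Across the 6 arrays the values of Trbv1 ran against those of Trbv13-2 (r = -0.781 with 101279_f_at and -0.890 with 94202_at), and the 3 gamma-locus probe sets ran together (r between 0.733 and 0.851). These are descriptions of 6 arrays that share title wording as a source of variation. For Trav9d-3 (97944_f_at) both numbered arrays were above and both Rag arrays below the rest, a place the Rag arrays had in 27.2% of all tested probe sets, and it did not pass (adjusted p = 0.0954).

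**Figure D4:**
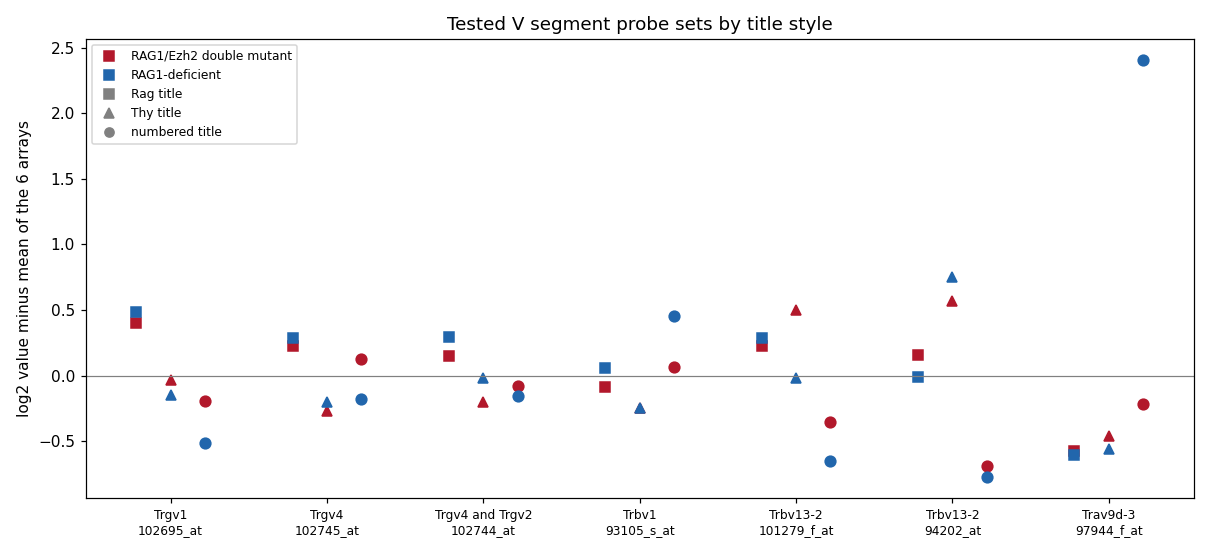
Log2 value of the 7 tested probe sets on each array minus the mean of the 6 arrays, by title wording (Rag squares, Thy triangles, numbered circles), double mutant in red and RAG1-deficient in blue. The numbered arrays are lowest for both Trbv13-2 probe sets, and the Rag arrays are highest for the 3 gamma-locus probe sets, although with quantile normalization the Rag wording keeps this place for Trgv1 but not for the other 2.

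Genes that act with the receptor chains gave no group call. The pre-T cell receptor and CD3 chains, with which receptor chains assemble at the membrane, had 0 of 5 tested probe sets passing in either limma fit (at an unadjusted p under 0.05, 1 without and 2 with the block, beside 3.19% and 13.1% of all tested probe sets), with a median log2 difference of -0.30. Ptcra, the partner of the beta chain before an alpha chain exists, read 5140, 5964 and 4614 on the double mutant arrays and 6588, 10480 and 8063 on the RAG1-deficient arrays, without overlap. Its log2 difference was -0.66 ± 0.24 (SE), with an adjusted p of 0.9999 (0.0827 with the block), so it did not pass. The CD3 chains carry the receptor's signal into the cell, and their log2 differences were -0.12 ± 0.27 for Cd3g, -0.06 ± 0.35 for Cd3e, -0.41 ± 0.38 for Cd3d and -0.30 ± 0.25 for the brighter probe set of Cd247 (SE). By title wording Cd3e and Cd3d passed (limma adjusted p = 0.00705 and 0.00601), 2 of 5 in this list, where 30.2% of all tested probe sets passed. Their log2 differences of Thy from the numbered wording were opposite, at 1.02 and -0.48. Among the V(D)J recombinase and joining genes 0 of 10 tested probe sets passed in either limma fit (unadjusted, 1 without and 3 with the block), with a median of -0.10. The brighter of the 2 probe sets of Rag1 read 5394, 5226 and 5171 on the double mutant arrays and 6933, 7241 and 7264 on the RAG1-deficient arrays, and did not pass either (log2 difference -0.44 ± 0.19 SE); the groups of its dimmer probe set overlapped. Rag2 read 644, 583 and 830 on the double mutant arrays and 895, 770 and 954 on the RAG1-deficient arrays, with overlap and a log2 difference of -0.35 ± 0.22 (SE). By title wording 2 of the 10 recombinase and joining probe sets passed, beside 30.2% of all tested probe sets. Both read Dntt, the enzyme that adds bases at V(D)J joints, while another tested probe set of Dntt did not pass (limma adjusted p = 0.105).

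Transcription factors, signalling and chromatin genes that act on T cell receptor loci formed the last list. In the group comparison 0 of its 24 tested probe sets passed in either limma fit (unadjusted, 0 without and 6 with the block, beside the same 3.19% and 13.1%), with a median log2 difference of 0.05. By title wording 13 of 24 passed, where 30.2% of all tested probe sets did, and they belong to Ikzf1, Lef1, Notch1, Stat5b, Runx1, Myb, Cbfb, Ets1, Rad21 and Tcf12. For Ikzf1 and Notch1 another tested probe set did not pass (limma adjusted p = 0.136 and 0.0821). That of Notch1 was the brighter and went the other way for Rag, at 0.35 from the numbered wording against -1.32 for the probe set that passed. Lef1, a factor that bends DNA at the alpha enhancer, read 741 and 1164 on the Rag arrays and 3067 and 3656 on the Thy arrays, against 4545 and 5192 on the numbered arrays, the double mutant array first in each pair. Runx1, which binds the beta enhancer, had a log2 difference of -2.26 for Rag and 0.74 for Thy from the numbered wording (adjusted p = 0.00756). The receptor gene Il7r, whose signal opens the gamma locus, did not pass by wording (adjusted p = 0.0722), with differences of 0.06 for Rag and 0.47 for Thy. The part of these genes in the levels of the V segments was not tested.

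Markers of gamma-delta T cells were read beside the gamma V segments. Over their 13 probe sets the summed intensity was 12460, 14058 and 9521 on the double mutant arrays and 7157, 8228 and 6093 on the RAG1-deficient arrays, without overlap. Most of each double mutant sum was the protease Gzma, given below, so the separation of the sums does not describe the list as a whole. In limma 0 of 10 tested probe sets passed without the block and 2 with it, where 0.667% of all passed, and the median log2 difference was 0.02. The 2 were the cytotoxic granule proteases Gzma and Gzmb, which the NK cell marker list also holds. Gzma read 8096, 7946 and 4982 on the double mutant arrays and 2796, 2163 and 1244 on the RAG1-deficient arrays, which differ by 1.79 ± 0.34 on the log2 scale (SE; adjusted p = 0.267 without and 0.00356 with the block). Gzmb read 414, 553 and 903 on the double mutant arrays and 191, 199 and 299 on the RAG1-deficient arrays, which differ by 1.31 ± 0.32 on the log2 scale (SE; adjusted p = 0.542 without and 0.0261 with the block). Of the 8 tested probe sets of the stromal list, only that of Pdgfrb, a growth factor receptor of mesenchymal cells, passed with the block. Its log2 difference was 1.22 ± 0.26 (SE; limma adjusted p = 0.332 without and 0.0436 with the block), while the median of the list was -0.077. The part of gamma-delta T cells, NK cells or stromal cells in the gamma V segment levels was not tested.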

How the data were processed

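Intensities were deposited as 1 linear value per probe set and array in the series value table. For the software and settings behind them: not given in the sources used here. After trimming 2% at either end, each array averaged 500.293 to 500.370, so the deposited intensities carry a common scale. The files hold no detection calls, and precision is limited by there being 6 arrays. The 66 control probe sets were left out. Genes came from the platform's probe table, updated through RefSeq (GRCm38.p6), which was used for names and segment order only and changed 0 member symbols.

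Values were taken as log2(intensity + 23), with the pseudocount set at the 20th percentile over the table. This scale understates changes of dim probe sets. Probe sets above 86.5, the 40th percentile, on at least 3 of 6 arrays were tested with limma 3.58.1 in R 4.3.3 (lmFit, eBayes with a trend), by group and by title wording. The fits were tested on simulated data with added changes of 3 log2 units. These were larger than any member's group difference, so the simulation does not show whether smaller changes would be found. Deviations from group means correlated at 0.570, 0.736 and 0.602 between the arrays of the numbered, Rag and Thy pair, all over the limit of 0.1 for pairing, so a fit with title wording as a block was run as well. The pairing comes from the titles and the data, not from a stated batch. Figures were drawn with matplotlib 3.10.9.

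Every member is accounted for. From the lists, genes that passed a test were to be named, plus receptor partners, recombinase and co-receptor genes, and the 8 genes most like the member with the widest range. Title wording calls in the lists of other cell types are not named. Il7r, Cd5, Cd6, Ighm and Cd79b were named after their values were seen. Members and lists were chosen with earlier results of these data known. Alternatives covered the pseudocount, filter, scaling, trend, block and arrays left out.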

Additional observations from a re-analysis of the deposited data

How the results depend on the processing

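The group comparison called 3 probe sets over the whole table (3 higher, 0 lower), and 51 with the replicate block (43 higher, 8 lower), 6 with the filter at the 60th percentile, 5 with quantile normalization, 17 with the block and quantile normalization (17 higher, 0 lower), 5 with the block and no filter, 0 to 6 with 1 array left out, and 3 to 191 with a pair left out of the block fit (14 without the numbered pair). Those 2 combined settings, and leaving out arrays in the title wording test, were added after the data were seen. Member calls in the group comparison stayed at 0 in all settings except the block without the Rag pair (range with arrays left out 0 to 1), and the block changed no other member's call. The title wording test called 2308 probe sets, 1209 without a trend and 604 to 2076 with 1 array left out; of the members it called 3, 1 without a trend and 0 to 6 with 1 array left out. No member's direction in the group comparison turned with the pseudocount or with quantile normalization. The filter, trend and full block leave each log2 difference unchanged in this balanced design, so they could not turn it. With arrays or pairs left out all 7 turned in at least 1 setting: Trav9d-3 ranged from -1.34 to 0.16 (0.063 in the block fit without the numbered pair), Trbv1 from -0.34 to 0.0030, Trbv13-2 from -0.012 to 0.49 (101279_f_at) and from -0.36 to 0.40 (94202_at, with -0.0073 and -0.050 in the block fit without the numbered and the Rag pair), Trgv1 from -0.11 to 0.39, Trgv4 from -0.063 to 0.22 (-0.040 without double mutant replicate 2), and the probe set of Trgv4 and Trgv2 from -0.18 to 0.042. Apart from fewer arrays, the causes of these shifts were not tested. Signal over background limits the 6 members under the filter, whose values carry no test.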
